A study of Mus musculus with 12 samples.

Results

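The 10 genes described here, Letm2, Tacc1, Ddhd2, Bag4, Lsm1, Star, Ash2l, Eif4ebp1, Brf2 and Rab11fip1, lie beside the FGF receptor gene Fgfr1 on mouse chromosome 8. They were chosen by symbol as members of the mouse counterpart of a stretch on the short arm of human chromosome 8. All 10 were found among the 47593 genes of the table, and all 10 were among the 16652 genes with a mean of at least 1 TPM (transcripts in a library scaled to a fixed total and corrected for length) over 11 of the tumors, the set in which tests were run. The question was which of them had levels that followed those of Fgfr1 from tumor to tumor.

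Fgfr1 is a receptor tyrosine kinase that binds fibroblast growth factors at the cell surface and signals through the Ras and MAP kinase pathway, and in the mammary gland FGF signaling acts in duct growth. In a share of human breast cancers the region around FGFR1 is present in extra copies. Such a gain usually spans several genes, and several of the neighbours have been discussed as possible contributors beside the receptor itself. The study also called copy number gains from tumor DNA. Those data were not analysed here, and only RNA levels are described.

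The series holds 12 mammary tumors from 9 female MADM-mutant mice, 7 with 1 tumor, 1 with 2 (tumors 3 and 4) and 1 with 3 (tumors 10, 11 and 12). All tumors belong to 1 condition: the labels give each mouse MADM RG;GR alleles on a mixed background and no treatment, and there is no normal gland to set beside them. By the study's methods, a Brca1 flox and a p53 KO allele were carried together on the MADM-TG chromosome, and MMTV-Cre, a transgene active in mammary epithelium, recombined the MADM cassettes, so that rare GFP-positive cells lost both genes among heterozygous and wild-type cells. Each library is poly(A) RNA of a piece of whole tumor. The ages of the mice are not given in the sources used here.

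Brca1 was at 14.3 ± 5.71 TPM (SD, n = 9 mice) and Trp53 at 56.3 ± 14.9 TPM. Whole tumors hold cells with intact alleles, and a transcript can persist from a mutant allele, so these levels do not check the genotype. In every tumor but tumor 2 the epithelial marker Epcam was detected, at 2.03 to 1004 TPM. Tumor 2 had Epcam at 0 TPM, 7 epithelial marker genes that summed to 1.87 TPM (156 to 8152 TPM in the other 11 tumors) and 5 B lymphocyte markers that summed to 1852 TPM (at most 115 TPM elsewhere), against its label of mammary tumor. It was therefore left out of the main comparisons, which rest on 11 tumors of 8 mice, and its values are given beside them. In RNA from whole tissue, fewer cells of a type and less RNA per cell cannot be told apart.

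Fgfr1 (ENSMUSG00000031565, GRCm38 chromosome 8, 25513654 to 25575718, plus strand) had the widest spread of the 11 genes. It was at 182, 0.86, 15.4, 69.9, 378 and 228 TPM in tumors 1 to 6 and at 218, 550.0, 30.01, 137, 359.7 and 584 TPM in tumors 7 to 12. Leaving out tumor 2, the highest tumor was 38.0-fold above the lowest. The mean was 249 ± 176 TPM (SD, n = 8 mice) and 221 ± 184 TPM with tumor 2. On the scale log2(TPM + 1), used from here on, the mouse with tumors 3 and 4 (5.09) and the mouse with tumor 9 (4.95) stood apart from the other 6 mice, which lay between 7.51 and 9.11. A correlation over 8 mice therefore partly compares these 2 mice with the rest, so the value over the 6 mice alone is given beside it.

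None of the 10 neighbours varied as widely. Over the 11 tumors, the highest value was between 1.81-fold (Bag4) and 5.13-fold (Eif4ebp1) the lowest, and no neighbour was at 0 in any of the 12 tumors. Since TPM are scaled by transcript length, levels can be compared between genes: Eif4ebp1 (147 ± 62.8 TPM, SD, n = 8 mice) and Ash2l (53.2 ± 13.5 TPM) were the highest, and Star (3.28 ± 1.41 TPM) and Letm2 (2.52 ± 0.707 TPM) the lowest. Fgfr1 itself was above every neighbour in 6 of the tumors.

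**Figure D1:**
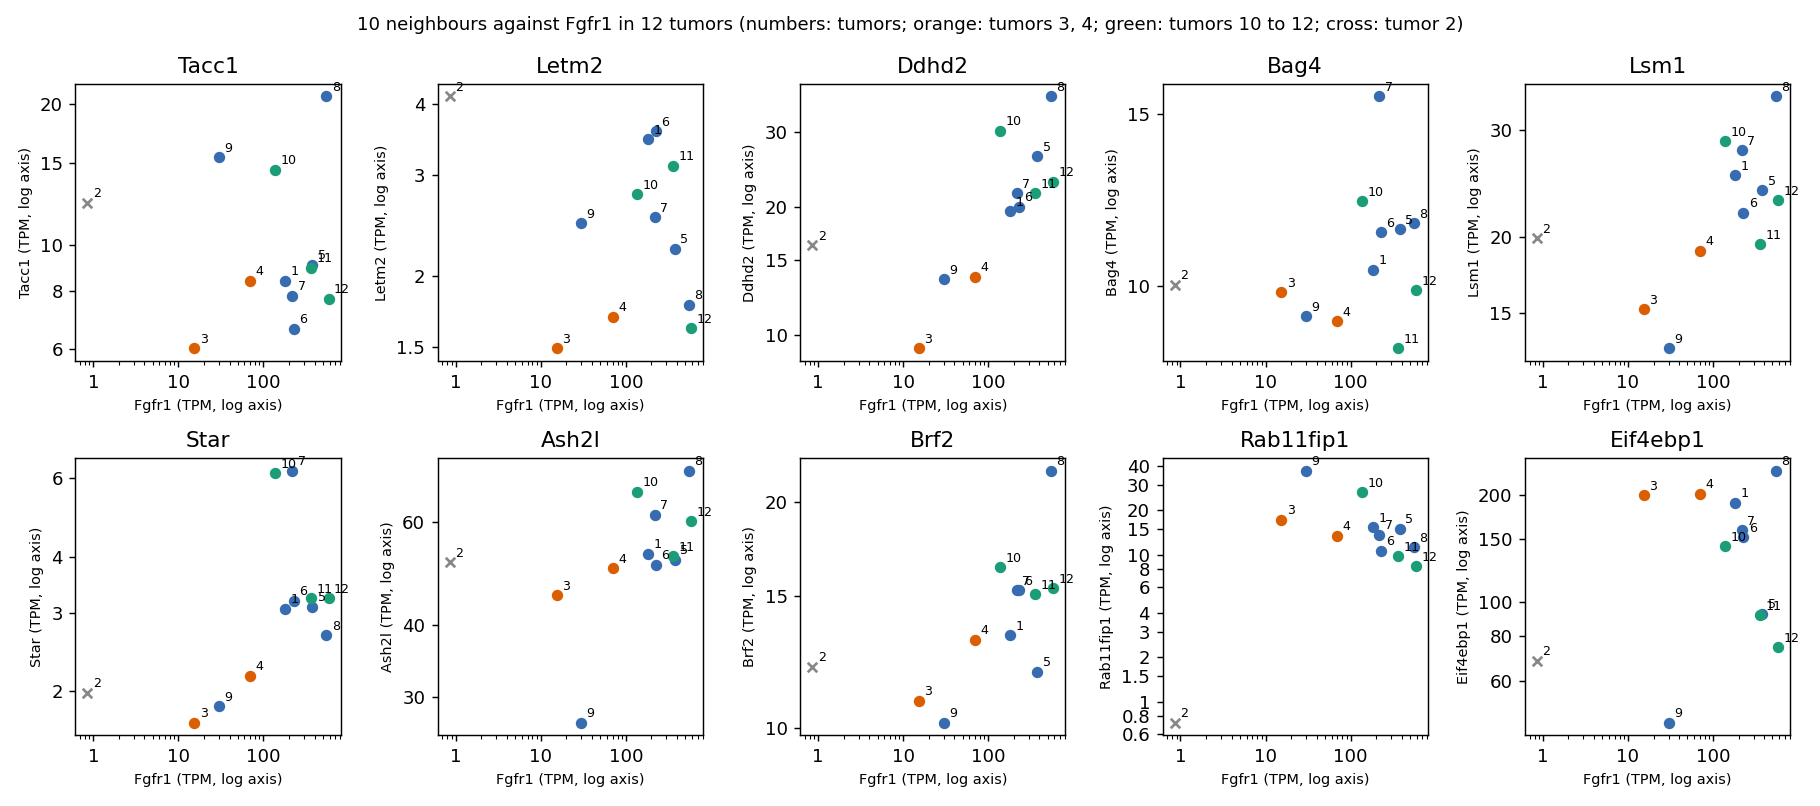
TPM of each neighbour (vertical, log axis) against TPM of Fgfr1 (horizontal, log axis), with 1 point per tumor. Ddhd2 lies along a rising band from tumor 3 (9.28 TPM) to tumor 8 (36.4 TPM) that tumor 10 and, at 0.86 TPM of Fgfr1, tumor 2 stand above, whereas Letm2, Tacc1 and Eif4ebp1 show no such band.

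The first group of neighbours acts in lipid handling and mitochondria. Ddhd2 encodes an intracellular lipase that acts on triglycerides and phospholipids (ENSMUSG00000061313, 25725346 to 25754596, minus strand, 212 kb above Fgfr1, with distances taken between the lower annotated coordinates). Its level was 19.5, 16.2, 9.28, 13.7, 26.3 and 19.97 TPM in tumors 1 to 6 and 21.5, 36.4, 13.5, 30.2, 21.5 and 22.9 TPM in tumors 7 to 12. The 3 tumors with the least Fgfr1 apart from tumor 2, namely 3, 9 and 4, also had the least Ddhd2, and did not overlap with the other 8 tumors. Tumor 8, second highest in Fgfr1, was the highest in Ddhd2.

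Across the 8 mice Ddhd2 had a Pearson r of 0.95 with Fgfr1 (exact permutation p = 0.00022, adjusted p = 0.29 over all tested genes) and a Spearman rho of 0.95 (exact permutation p = 0.0011, adjusted p = 0.79). Over the 6 mice with more Fgfr1 the r was 0.97 (exact permutation p = 0.0028), and when each of the 8 mice was left out in turn it stayed between 0.93 and 0.97. The limma slope was 0.31 ± 0.07 (SE, n = 8 mice), which is 24.3% more Ddhd2 per doubling of Fgfr1 on this scale. Its limma p was 0.0014 and its adjusted p 0.44. With tumor 2 included the slope was 0.13 ± 0.05 and r was 0.70 (n = 9 mice, exact permutation p = 0.037), as tumor 2 combined almost no Fgfr1 with 16.2 TPM of Ddhd2. With the 11 tumors as units and the mouse as a random block in limma, the slope was 0.17 ± 0.08 (p = 0.046, adjusted p = 0.52). Neither r, rho nor the slope passed adjustment over all genes.

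Star, which carries cholesterol into mitochondria for steroid synthesis (ENSMUSG00000031574, 25806555 to 25815982, plus strand), was at 3.06, 1.98, 1.70, 2.16, 3.09 and 3.19 TPM in tumors 1 to 6 and at 6.24, 2.67, 1.85, 6.17, 3.23 and 3.23 TPM in tumors 7 to 12. Tumors 7 and 10 held about as much Star as each other and stood above all others. Neither was among the tumors highest in Fgfr1. The r was 0.58 over 8 mice (exact permutation p = 0.13) and rho 0.43 (exact permutation p = 0.30), and over the 6 mice r was -0.43 (exact permutation p = 0.40). The limma slope of 0.16 ± 0.11 had an adjusted p of 0.69. Without the mouse of tumor 7, r was 0.80 (exact permutation p = 0.037), and without that of tumor 9 it was 0.40 (exact permutation p = 0.32).

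Letm2, a relative of the mitochondrial inner membrane protein Letm1, is the nearest of the 10 to Fgfr1 (ENSMUSG00000037363, 25578490 to 25597582, minus strand). Its lower coordinate lies 64.8 kb from that of Fgfr1, and the annotated ends of both genes face each other. It was at 3.46, 4.12, 1.49, 1.70, 2.23 and 3.57 TPM in tumors 1 to 6 and at 2.53, 1.78, 2.47, 2.77, 3.11 and 1.62 TPM in tumors 7 to 12. Tumor 2, lowest in Fgfr1, was the highest in Letm2, while tumors 8 and 12, highest in Fgfr1, were among the lowest 4. Over 8 mice r was 0.17 (exact permutation p = 0.70) and rho -0.21 (exact permutation p = 0.62), with a limma slope of 0.03 ± 0.10 (adjusted p = 0.95). Over the 6 mice with more Fgfr1, r was -0.89 (exact permutation p = 0.021), but the limma slope of -0.42 ± 0.23 over these mice had an adjusted p of 0.59. Lying next to Fgfr1 thus did not come with a matching level for Letm2.

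The second group acts on RNA, chromatin, transcription and translation. Lsm1 is a subunit of the cytoplasmic Lsm ring that promotes decapping and decay of mRNA (ENSMUSG00000037296, 25785288 to 25803975, plus strand, 272 kb above the Fgfr1 start). It was at 25.3, 19.9, 15.2, 19.0, 23.9 and 21.9 TPM in tumors 1 to 6 and at 27.8, 34.1, 13.1, 28.7, 19.5 and 23.0 TPM in tumors 7 to 12. Tumors 9, 3 and 4 were again the lowest and tumor 8 the highest. The r was 0.90 over 8 mice (exact permutation p = 0.0046, adjusted p = 0.49), but the rho was 0.64 (exact permutation p = 0.096) and r over the 6 mice was 0.56 (exact permutation p = 0.26). The limma slope was 0.24 ± 0.07 (p = 0.0090, adjusted p = 0.49), or 17.7% per doubling of Fgfr1. It was 0.09 ± 0.05 with tumor 2, and 0.11 ± 0.07 (p = 0.15) over 11 tumors with the mouse as a random block.

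Ash2l is a core subunit of the complexes that methylate histone H3 at lysine 4 (ENSMUSG00000031575, 25815996 to 25847694, minus strand). Its level was 53.0, 51.3, 44.9, 50.1, 51.8 and 50.7 TPM in tumors 1 to 6 and 61.9, 73.7, 27.1, 67.8, 52.5 and 60.3 TPM in tumors 7 to 12. Tumor 9 stood far below all others, and without it the tumors lay within 44.9 and 73.7 TPM. The r was 0.81 over 8 mice (exact permutation p = 0.0026, adjusted p = 0.48), the rho 0.69 (exact permutation p = 0.069) and r over the 6 mice 0.62 (exact permutation p = 0.20). Leaving out the mouse of tumor 9 alone gave an r of 0.68 (exact permutation p = 0.10) and moved the limma slope from 0.22 ± 0.08 (p = 0.017, adjusted p = 0.50) to 0.11 (p = 0.16). The slope was 0.07 ± 0.05 with tumor 2, and 0.10 ± 0.06 (p = 0.13) over 11 tumors with the mouse as a random block.

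Brf2, a TFIIIB subunit that helps RNA polymerase III start at a small class of promoters (ENSMUSG00000031487, 27123364 to 27128680, minus strand, 1610 kb from the Fgfr1 start), was at 13.3, 12.1, 10.9, 13.1, 11.9 and 15.3 TPM in tumors 1 to 6 and at 15.3, 22.1, 10.2, 16.4, 15.1 and 15.4 TPM in tumors 7 to 12. Tumor 8 was the highest and tumors 9 and 3 the lowest. The r was 0.74 (exact permutation p = 0.035, adjusted p = 0.55), the rho 0.62 (exact permutation p = 0.11) and r over the 6 mice 0.55 (exact permutation p = 0.26). The limma slope was 0.15 ± 0.08 (adjusted p = 0.60), and 0.09 ± 0.06 with the mouse as a random block. Leaving out the mouse of tumor 9 gave an r of 0.60 (exact permutation p = 0.18), and leaving out the mouse of tumor 5 an r of 0.91 (exact permutation p = 4e-04). The Brf2 locus overlaps the end of Adgra2 on the opposite strand.

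Eif4ebp1, the repressor that binds eIF4E and is released from it after phosphorylation by mTOR (ENSMUSG00000031490, 27260329 to 27276674, plus strand, 1747 kb from the Fgfr1 start), was at 190.2, 68.3, 199.7, 201, 92.6 and 152 TPM in tumors 1 to 6 and at 159, 234, 45.6, 144, 91.6 and 74.5 TPM in tumors 7 to 12. Tumors 3 and 4, with little Fgfr1, held more Eif4ebp1 than 8 of the 9 other tumors, and tumor 12, with the most Fgfr1, less than all but tumors 9 and 2. The r was 0.36 over 8 mice (exact permutation p = 0.38), the rho 0.17 (exact permutation p = 0.70), r over the 6 mice 0.0045 (exact permutation p = 0.99) and the limma slope 0.18 ± 0.16 (adjusted p = 0.78). It turned on single mice: without that of tumor 9 the slope was -0.12, and without that of tumors 3 and 4 it was 0.43 (p = 0.024).

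The third group acts in cell structure, chaperoning and membrane traffic. Tacc1, a coiled-coil protein of the centrosome and microtubules, is the only one of the 10 below Fgfr1 on the chromosome (ENSMUSG00000065954, 25154552 to 25256588, minus strand, -359 kb). It was at 8.40, 12.3, 6.02, 8.40, 9.08 and 6.63 TPM in tumors 1 to 6 and at 7.80, 20.8, 15.4, 14.5, 8.96 and 7.68 TPM in tumors 7 to 12. Tumors 8, 9 and 10 were the highest and cover nearly the whole range of Fgfr1. The r over 8 mice was 0.13 (exact permutation p = 0.82), the rho 0.31 (exact permutation p = 0.46) and the limma slope 0.05 ± 0.13 (adjusted p = 0.94). Over the 6 mice with more Fgfr1, r was 0.85 (exact permutation p = 0.028) and the slope 0.76 ± 0.28 (p = 0.029, adjusted p = 0.44). Without the mouse of tumor 8, r was -0.36 (exact permutation p = 0.43).

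Bag4, a co-chaperone that binds Hsc70 and the cytoplasmic tail of a TNF receptor (ENSMUSG00000037316, 25764538 to 25785287, minus strand), varied least. It was at 10.4, 10.0, 9.85, 9.20, 11.4 and 11.4 TPM in tumors 1 to 6 and at 15.6, 11.6, 9.31, 12.2, 8.63 and 9.90 TPM in tumors 7 to 12. Only tumor 7 stood apart. The r was 0.53 (exact permutation p = 0.18), the rho 0.67 (exact permutation p = 0.083), r over the 6 mice -0.13 (exact permutation p = 0.82) and the limma slope 0.07 ± 0.08 (adjusted p = 0.81). Without the mouse of tumor 7, r was 0.88 (exact permutation p = 0.0063). Bag4 and Lsm1 adjoin head to head, with their annotated starts at neighbouring bases, yet their r over 8 mice was 0.64 and 0.34 over 6.

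Rab11fip1, an effector of the small GTPase Rab11 in the recycling of membrane proteins to the cell surface (ENSMUSG00000031488, 27138773 to 27174646, minus strand, 1625 kb from the Fgfr1 start), ran the other way. It was at 15.4, 0.72, 17.3, 13.5, 15.0 and 10.7 TPM in tumors 1 to 6 and at 13.7, 11.2, 37.3, 26.5, 9.77 and 8.32 TPM in tumors 7 to 12. Tumor 9 was the highest of all, and tumor 12, with the most Fgfr1, the lowest of the 11. The r over 8 mice was -0.73 (exact permutation p = 0.018, adjusted p = 0.51), the rho -0.74 (exact permutation p = 0.046) and the limma slope -0.25 ± 0.10 (p = 0.035, adjusted p = 0.53), or -16.0% per doubling of Fgfr1. The mouse of tumor 9 carried much of this: without it the slope was -0.08 (p = 0.43), and over the 6 mice r was -0.33 (exact permutation p = 0.51). Over 11 tumors with the mouse as a random block the slope was -0.35 ± 0.10 (p = 0.0036, adjusted p = 0.37). Tumor 2, with 0.72 TPM beside almost no Fgfr1, turned the slope to 0.27 ± 0.12 when it was included. Tumor 2 is also the tumor without epithelial gene expression, whose part in its Rab11fip1 level was not tested.

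**Figure D2:**
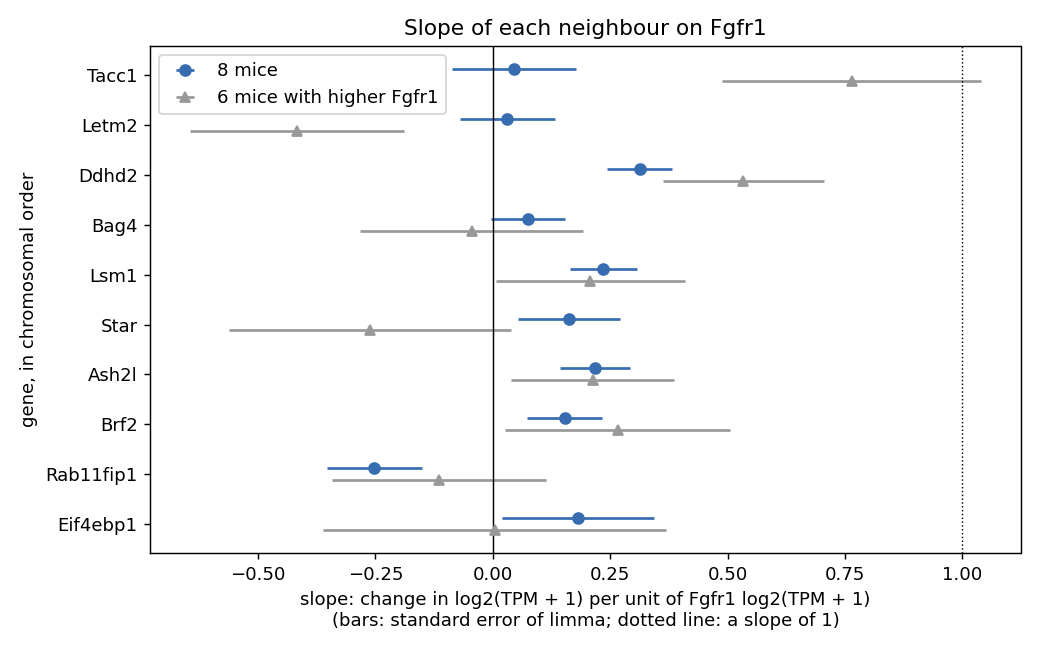
Limma slope of each neighbour on Fgfr1, as the change in log2(TPM + 1) per unit of Fgfr1 (horizontal), with its standard error as a bar, for the 8 mice (circles) and the 6 mice with more Fgfr1 (triangles). Ddhd2 had the highest slope over 8 mice (0.31) and Rab11fip1 the only negative one (-0.25), and Letm2, Bag4 and Star changed sign between both sets of mice.

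Counted together, none of the 10 had a slope that passed an adjusted p of 0.05 in limma, and neither did any of the 16652 tested genes (0% in the positive and 0% in the negative direction). At an unadjusted p under 0.05, 3 of the 10 had a positive slope (Ddhd2, Lsm1 and Ash2l) against a background of 5.21% of all tested genes, and 1 a negative slope (Rab11fip1) against 3.96%. By the exact permutation test of r, 4 of the 10 were positive with Brf2 added (background 5.19%) and 1 negative (background 3.4%). A median ratio scaling gave Brf2 an r of 0.68 (exact permutation p = 0.073) and Rab11fip1 one of -0.67 (exact permutation p = 0.057). Including tumor 2 gave r of 0.62 for Lsm1 (exact permutation p = 0.088), 0.45 for Ash2l (exact permutation p = 0.20) and 0.59 for Brf2 (exact permutation p = 0.10). Over the 6 mice, 2 of the 10 had a positive slope at an unadjusted p under 0.05, Tacc1 and Ddhd2, against 5.45%. Ddhd2 was the only neighbour in both sets. The slopes over 8 mice all lay well below 1. For genes far above 1 TPM, a change in proportion to Fgfr1 would give a slope near 1. For low genes such as Star and Letm2 the added 1 makes that value smaller. With 0.1 in place of the added 1, their slopes over 8 mice were 0.22 and 0.044.

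Among all tested genes Ddhd2 had the fourth highest r with Fgfr1 over the 8 mice, rank 4 of 16652, and rank 20 over the 6 mice. The 3 above it lie on other chromosomes: the predicted gene Gm12418 (chromosome 4, r = 0.98, and 0.80 over 6 mice), the histone deacetylase gene Hdac5 (chromosome 11, r = 0.96 and 0.80) and the nucleolar protein gene Nol8 (chromosome 13, r = 0.95 and 0.71). Man2a2, an enzyme of N-glycan trimming on chromosome 7, followed with 0.95 and 0.78. Ddhd2 lies 212 kb from Fgfr1, and these 4 genes do not share its chromosome. The lists rest on 8 points that share the Fgfr1 values.

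**Figure D3:**
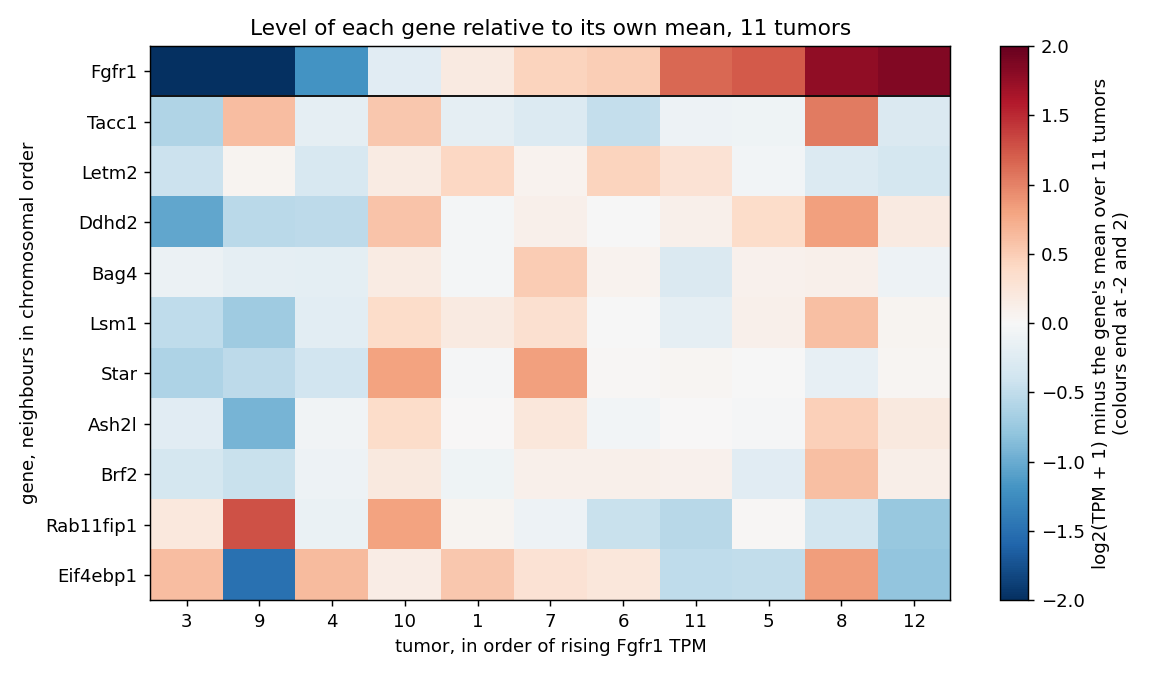
log2(TPM + 1) of Fgfr1 (top line) and of each neighbour minus the gene's own mean over the 11 tumors (colour, cut at -2 and 2), with tumors ordered from left to right by rising Fgfr1. Tumors 3, 9 and 4 on the left are blue for most neighbours. Tumors 10, 7 and 8 are red for most (10, 8 and 7 of 10), although tumor 10 is only the fourth from the left in Fgfr1. The share over all tested genes was not counted.

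Seen tumor by tumor, the neighbours were lowest in tumors 9, 3 and 4, with a median deviation from each gene's own mean of -0.49, -0.39 and -0.19. Over all genes with a mean of 1 TPM or more, the median deviation was -0.20, 0.03 and 0.04 in these tumors. The neighbours were highest in tumor 8 (0.54, 7 of 10 above their own mean), tumor 10 (0.36, 10 of 10) and tumor 7 (0.17, 8 of 10). The median over all these genes was -0.06, 0.02 and 0.05 there. The share of all genes above their own mean was not counted. In tumor 12, which had the most Fgfr1 of all, the neighbours' median deviation was -0.03 (0.05 over all genes), with 5 of 10 above their mean. So the 3 tumors low in Fgfr1 were low in most neighbours, but among the other 8 tumors the neighbours were not ordered by Fgfr1.

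Tumors of the same mouse share its germline and background, and 2 mice allowed such a comparison, with no replicate of any tumor and hence no test. In the mouse with tumors 3 and 4, Fgfr1 was 4.55-fold higher in tumor 4 (15.4 against 69.9 TPM). Of the 10 neighbours, 8 were higher in tumor 4 as well, beside 43.8% of all tested genes, with a median difference of 0.19 in log2(TPM + 1) against -0.04 over all tested genes. The highest differences were those of Ddhd2 (0.51), Tacc1 (0.42) and Lsm1 (0.30), while Rab11fip1 (-0.34) and Bag4 (-0.09) were lower in tumor 4. Cell type markers differed as well. Fibroblast sums were 1104 TPM in tumor 3 and 2883 TPM in tumor 4, adipocyte sums 179 and 491 TPM, macrophage sums 583 and 979 TPM. Endothelial, lymphocyte and myoepithelial sums were also higher in tumor 4. Epithelial sums were 7096 and 5361 TPM, and muscle and proliferation sums were lower in tumor 4 too. Their part in the neighbour levels was not tested.

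In the mouse with tumors 10, 11 and 12 the direction was opposite. Fgfr1 was 2.62-fold higher in tumor 11 and 4.25-fold higher in tumor 12 than in tumor 10. Of the neighbours, only Letm2 (0.12) was higher in tumor 11, 1 of 10 beside 47.6% of tested genes, and 0 of 10 were higher in tumor 12 beside 52%. Their median differences were -0.51 and -0.45, against -0.02 and 0.03 over all tested genes. Ddhd2 itself was lower by these measures, at -0.47 and -0.38, and Rab11fip1 differed most, at -1.35 and -1.56. Tumor 10 enters both differences, so they are not separate observations. Between tumors 11 and 12, where Fgfr1 was 1.62-fold higher in tumor 12, 6 of 10 neighbours were higher in tumor 12, near the 56.1% of all tested genes, with a median difference of 0.01 against 0.05 over all tested genes. Differences in Fgfr1 of 2.62-fold and more within a mouse thus came with mostly higher neighbour levels in 1 mouse and mostly lower ones in the other. The 23 other tested genes of the segment, described below, went the same ways. Of these, 16 were higher in tumor 4 than in tumor 3, and 7 and 4 were higher in tumors 11 and 12 than in tumor 10.

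**Figure D4:**
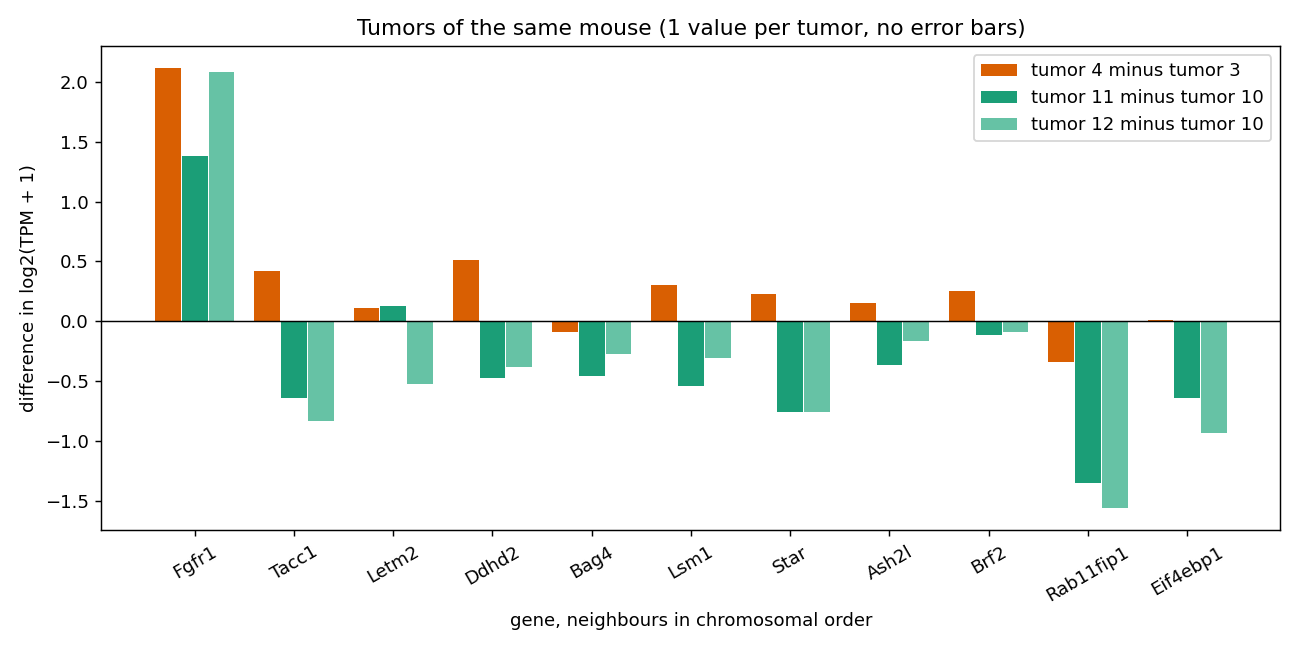
Difference in log2(TPM + 1) between tumors of the same mouse (vertical) for Fgfr1 and each neighbour, with 1 bar per pair of tumors and no error bars, as each tumor was measured in 1 library. Fgfr1 was higher in all 3 pairs (2.12, 1.38 and 2.08), 8 neighbours were higher in tumor 4 than in tumor 3, and 9 or 10 were lower in tumors 11 and 12 than in tumor 10.

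The 10 were then set beside the other genes of the segment. These were the 23 further tested genes whose lower annotated coordinate lies within 2.5 Mb of that of Fgfr1. The median r with Fgfr1 over 8 mice was 0.56 for the 10 and 0.55 for these 23, and over the 6 mice it was 0.28 for both. At an unadjusted limma p under 0.05, 9 of the 23 had a positive slope (background 5.21%) and 0 a negative one, with 0 at an adjusted p under 0.05. The 9 became 2 without the mouse of tumor 9 and 1 over the 6 mice (background 5.45%). The named neighbours and the other genes of the segment thus had nearly equal medians. The highest r among the 23 belonged to Fnta, a farnesyltransferase subunit (0.90, and 0.81 over 6 mice), Hook3, a dynein adaptor (0.88 and 0.39), Gins4, a replication factor (0.86 and -0.07), Hgsnat, a lysosomal acetyltransferase (0.86 and -0.21), and Pomk, a kinase for O-mannosyl glycans (0.82 and 0.60). The lowest belonged to the Wnt antagonist Sfrp1 (-0.45, and -0.76 over 6 mice), Plekha2 (-0.29 and 0.05) and the metalloprotease gene Adam9 (-0.24 and 0.58), so that 2 of these 3 changed sign over the 6 mice.

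**Figure D5:**
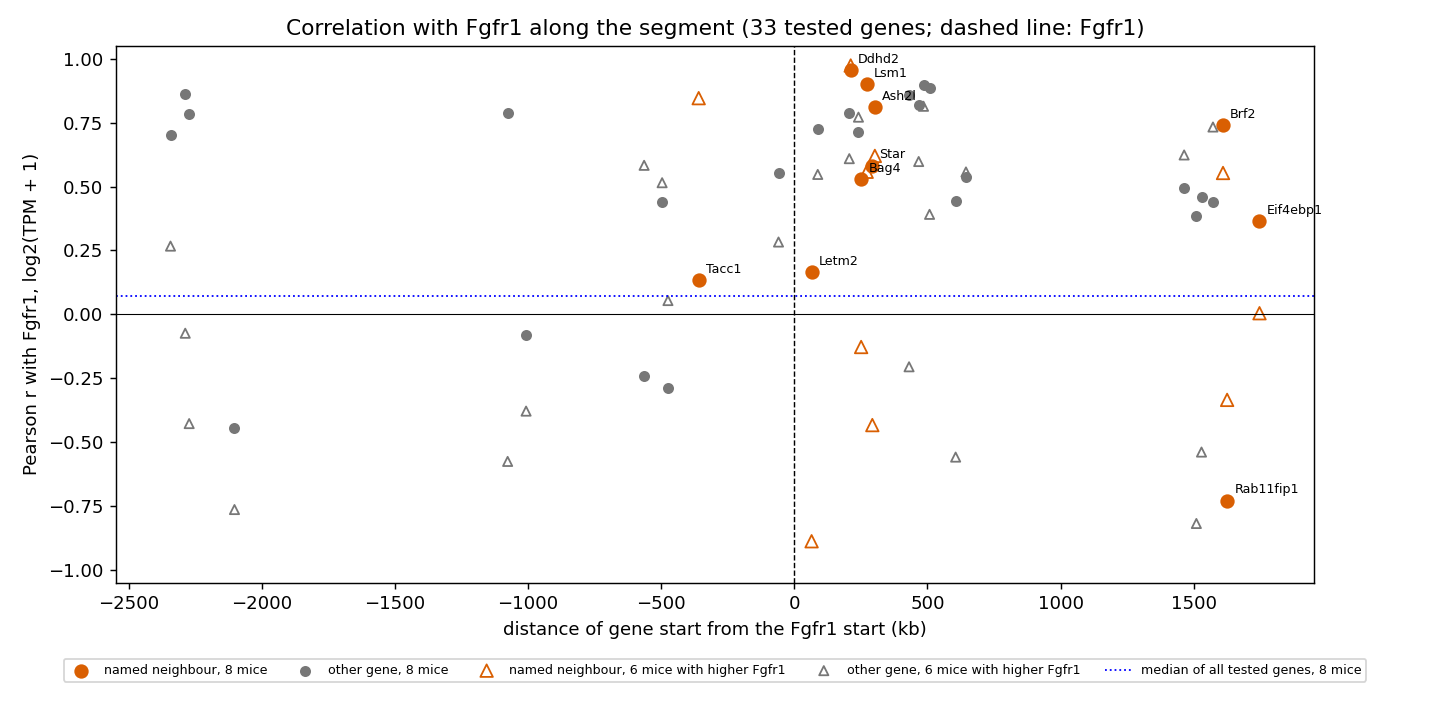
Pearson r with Fgfr1 (vertical) of the 33 tested genes of the segment, over 8 mice (filled) and the 6 with more Fgfr1 (open). The horizontal axis gives the distance in kb between the lower annotated coordinates of the gene and of Fgfr1. Ddhd2, Lsm1 and Ash2l, at 212 to 302 kb, have r of 0.95, 0.90 and 0.81, whereas Letm2 at 64.8 kb has 0.17, and the dotted line marks the median of all tested genes, 0.07.

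Distance gave no simple order. Within 700 kb of Fgfr1, a limit set after the values were seen, the median r was 0.65 over 8 mice and 0.55 over 6 (20 genes, 7 of them named neighbours). Beyond it the medians were 0.46 and -0.33 (13 genes). On the rest of chromosome 8 the 800 tested genes had a median r of 0.37 over 8 mice and 0.16 over 6, and 141 of them, or 17.6%, had a positive slope at an unadjusted limma p under 0.05. All tested genes together had a median of 0.07 and 0.01. Chromosome 8 as a whole (median 0.38, and 0.16 over 6 mice, 833 genes) came second of the chromosomes over 8 mice after chromosome 13 (0.38 and 0.07, 593 genes), and chromosome 12 had the lowest median (-0.23, and 0.03 over 6 mice). Genes of a chromosome are not independent, and positive medians were not confined to the segment.

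Among themselves the neighbours did not form a single block. Of the 45 pairs, the median r over 8 mice was 0.31, 5 pairs exceeded 0.8 and 16 were negative. The highest was Lsm1 with Ash2l (0.94, and 0.90 over 6 mice), followed by Ddhd2 with Lsm1 (0.86 and 0.72). Brf2, 1338 kb from Lsm1, had an r of 0.84 with it and of 0.84 with Ash2l (0.75 and 0.87 over 6 mice), and Bag4 with Star had 0.84 (0.74 over 6 mice). Most negative was Ash2l with Rab11fip1 (-0.90, and -0.34 over 6 mice). The lower annotated coordinates of Brf2 and Rab11fip1 lie 15.4 kb apart. Their r was -0.74 (-0.72 over 6 mice), so adjacent genes differed in direction. The points of all pairs share the same 8 mice.

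Genes that act with the neighbours or the receptor, or are relatives of them, were also counted. They made up 10 partner lists of 63 genes, of which 60 were tested. None had a slope on Fgfr1 at an adjusted p under 0.05 in limma. At an unadjusted p under 0.05, 4 of the 60 had a positive slope (background 5.21%) and 1 a negative slope (background 3.96%), counts close to those shares. The 4 were the FGF response genes Etv4 (slope 0.80), Spry4 (0.46) and Spred1 (0.33), and Bdp1, the TFIIIB partner of Brf2 (0.25), and the negative one was the receptor gene Fgfr2 (-0.43). Etv4 had an r of 0.65 over 8 mice and of -0.50 over 6, Spry4 of 0.80 and 0.65, and Spred1 of 0.69 and 0.47. The list of FGF receptors and response genes thus held 3 of these 4, or 25% of its 12 tested genes, and also the negative one. This whole list had a median r of 0.32 over 8 mice and of -0.41 over 6. Bdp1 had the highest r of all (0.88, and 0.31 over 6 mice) and Fgfr2 the lowest (-0.77, but 0.85 over 6 mice), at 0 to 5.94 TPM in the 11 tumors and 31.0 TPM in tumor 2. In the Lsm ring and decapping list the median r was 0.20 (-0.23 over 6 mice), and none of the 9 genes passed an unadjusted p of 0.05. The 7 histone methyltransferase partners of Ash2l had a median r of -0.37 (-0.30 over 6 mice), against 0.81 (0.62) for Ash2l.

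Some marker lists differed in the 2 mice with little Fgfr1. The 5 myoepithelial genes summed to 149 and 206 TPM in tumors 3 and 4 and to 275 TPM in tumor 9, beside 42.8 to 114 TPM in the 6 mice with more Fgfr1, but from different genes. In tumor 9 the sum was nearly all Myh11, at 250.4 TPM, while Acta2 was at its lowest of the 11 tumors, 22.2 TPM. In tumors 3 and 4 it was mostly Acta2, up to 194 TPM. The proliferation, muscle and lymphocyte lists each set apart 1 of both. The 5 proliferation genes summed to 170 TPM in tumor 9, the lowest of all, against 464 to 988 TPM in the 6 mice with more Fgfr1, and to 751 and 710 TPM in tumors 3 and 4. The 5 skeletal muscle genes summed to 365 and 245 TPM in tumors 3 and 4 and to 11.4 TPM in tumor 9, against 2.89 to 23.6 TPM in the 6 mice. Tumor 9 also had the highest T and B lymphocyte sums of the 11 tumors (81.7 and 115 TPM). Adipocyte sums were 179, 491 and 199 TPM in tumors 3, 4 and 9, against 12.4 to 244 TPM in the 6 mice. The 6 mice with more Fgfr1 also differed among themselves. Their epithelial sums ran from 156 to 8152 TPM and their fibroblast sums from 157 to 3222 TPM.

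The mean level of each of the 10 marker lists was set beside Fgfr1 over the 8 mice, and no exact permutation p of r was under 0.05. The r was most negative for the myoepithelial list, at -0.64 (exact permutation p = 0.082, and -0.63 over 6 mice), but the median r of its 5 genes was -0.04, with Myh11 at -0.75 and the others between -0.30 (Cnn1) and 0.41 (Trp63). Next came the skeletal muscle list at -0.61 (exact permutation p = 0.11, and -0.44 over 6 mice). Adipocyte (-0.57, exact permutation p = 0.16), B lymphocyte (-0.52, exact permutation p = 0.23) and T lymphocyte lists (-0.28, exact permutation p = 0.53) turned to 0.55, 0.83 and 0.68 over the 6 mice, with an exact permutation p of 0.28, 0.038 and 0.13. For the epithelial list r was -0.40 (exact permutation p = 0.35, and -0.78 over 6 mice). Positive values belonged to the proliferation list at 0.50 (exact permutation p = 0.22, and 0.10 over 6 mice), the endothelial list at 0.33 (exact permutation p = 0.41, and 0.60), the macrophage list at 0.26 (exact permutation p = 0.52, and 0.76) and the fibroblast list at 0.12 (exact permutation p = 0.79, and 0.76). Of the 5 proliferation genes, 2 had a positive limma slope at an unadjusted p under 0.05 (background 5.21%). These were Ccnb1 (r of 0.75 over 8 mice) and Top2a (0.70), while Ube2c had 0.36, Mki67 0.22 and Birc5 0.22. Spearman's rho of the 10 lists lay between -0.57 (myoepithelial, exact permutation p = 0.15) and 0.38 (endothelial, exact permutation p = 0.36).

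With the proliferation list as a second term in the limma fit, the Ddhd2 slope was 0.34 ± 0.07, that of Lsm1 0.20 ± 0.08, that of Ash2l 0.15 ± 0.07 (p = 0.070) and that of Rab11fip1 -0.15 ± 0.10 (p = 0.15). Ash2l and Rab11fip1 were thus no longer under an unadjusted p of 0.05, which Ddhd2 (p = 0.0017) and Lsm1 (p = 0.029) still were. With the epithelial list in its place they were 0.28 ± 0.07, 0.22 ± 0.08, 0.21 ± 0.08 and -0.26 ± 0.11, all 4 at an unadjusted p under 0.05. The part of myoepithelial, muscle, adipocyte and lymphocyte RNA in these values was not tested.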

How the data were processed

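Per the study's methods and the labels, poly(A) RNA of 12 tumors was sequenced as paired-end reads with a stranded kit. The authors trimmed adapters, aligned reads to GRCm38 with HISAT and made 1 value per Ensembl gene and tumor with StringTie 2.1.6. The deposited values are TPM, which sum to 999770 to 999909 per tumor. TPM keep no read totals, so the depth, and with it the counting error of low genes such as Letm2 and Star, is unknown. How transcripts were summed per gene, and whether strand was used, is not given in the sources used here, so adjoining or overlapping genes may share reads.

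Values were transformed to log2(TPM + 1), and tumors of a mouse were averaged. Genes with a mean of 1 TPM or more over 11 tumors were tested (16652 of 47593). Each gene was fitted on the Fgfr1 level of the mouse with limma 3.58.1 (R 4.3.3, empirical Bayes with a mean trend, two-sided) over 8 mice, with Benjamini-Hochberg adjustment over all tested genes. Pearson r and Spearman rho have two-sided exact permutation p-values over 40320 pairings of 8 mice (smallest 2.48e-05) or 720 of 6 (smallest 0.00139). The smallest adjusted p over all genes was 0.44 for the slope and 0.29 for r. The sample descriptions give tumors of a mouse different suffixes, whose meaning the labels do not state. Positions are from GENCODE vM21 annotation of GRCm38, which located 99.0% of the gene IDs. Scripts used Python 3.11.15 and were tested on simulated data. Genes were named by rule: Fgfr1 and the 10 neighbours, the 5 genes with the highest r with Fgfr1, the 5 highest and 3 lowest of the segment, the highest and lowest of the partner lists, and the markers and targeted genes named in the text. Other partner genes, and the lowest pairs, were named after their values were seen. The neighbours, the lists and the leaving out of tumor 2 were chosen with earlier results of these data known. Alternatives were other mice or units, pseudocounts, filters, a median ratio scaling and covariates.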

Additional observations from a re-analysis of the deposited data

Results flagged for a closer look

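Fgfr1 and the 10 neighbours were examined for a highest or lowest mouse far from the others (Dixon's criterion, 9 mice, values in log2(TPM + 1)). Chance marks about 1 gene in 20, and 4 of the 11 were marked. Fgfr1 was lowest in tumor 2 at 0.89, with the next mouse at 4.95. Rab11fip1 was also lowest in tumor 2 at 0.78, with the next mouse at 3.54. Ash2l was lowest in tumor 9 at 4.81, with the next at 5.60. Bag4 was highest in tumor 7 at 4.06, with the next at 3.65.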

How the results depend on the processing

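No neighbour passed an adjusted p of 0.05 in limma under any alternative, and Ddhd2, Lsm1, Ash2l and Brf2 kept a positive slope in all of them. The counts of neighbours with a positive slope at an unadjusted p under 0.05 (3) and with a negative one (1) did change. With all 9 mice they were 1 and 0, over the 6 mice 2 and 0, with the 11 tumors as units and the mouse as a random block (added after the data were seen, as were the epithelial and proliferation terms) 1 and 1, and with the proliferation term 2 and 0. Leaving out each mouse in turn gave 1 to 4 and 0 to 1, with the low value of 1 without tumor 9. All 9 mice gave 536 positive and 92 negative calls over all tested genes and 2 calls among the 23 other genes of the segment. The epithelial term gave 1 positive call, and leaving out mice gave 0 to 12 positive and 0 to 28 negative calls (12 and 28 without tumors 3 and 4, and 3 positive without tumor 8). Of the 23, those with a positive slope at an unadjusted p under 0.05 (9) were 1 over the 6 mice, 3 with the random block, 5 with the epithelial and 5 with the proliferation term, and 2 to 9 when mice were left out (2 without tumor 9).

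Directions turned as follows. Letm2 had a slope of -0.051 and r of -0.40 with 9 mice, -0.42 and -0.89 over 6, and a slope of -0.017 with the block. Leaving out mice gave slopes of -0.053 to 0.085 and r of -0.28 to 0.45. Tacc1 had a slope of -0.017 and r of -0.085 with 9 mice, and slopes of -0.077 with the epithelial term and -0.024 with the block. Leaving out mice gave slopes of -0.090 to 0.24 and r of -0.36 to 0.61. Bag4 had a slope of -0.045 and r of -0.13 over 6 mice and a slope of -0.011 with the block. Star had a slope of -0.26 and r of -0.43 over 6 mice. Eif4ebp1 had a slope of -0.0031 and r of -0.0072 over 11 tumors and a slope of -0.028 with the block. Leaving out mice gave slopes of -0.12 to 0.43 and r of -0.31 to 0.73. Rab11fip1 had a slope of 0.27 and r of 0.59 with 9 mice. The cause was not tested. The median ratio scaling moved tumors by -0.20 (tumor 9) to 0.05, and turned no neighbour.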
